A study of Mus musculus with 15 samples.

Results

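The constitutive proteasome subunits are described here in sorted mouse XCR1+ dendritic cells, antigen-presenting cells that show peptides of ingested proteins to CD8+ T cells. Members were all genes whose symbol in the array annotation reads Psma, Psmb, Psmc, Psmd, Psme, Psmf or Psmg followed by a number, without the inducible catalytic subunits Psmb8, Psmb9 and Psmb10. This gave 44 of the 18194 genes with a probe set of 1 symbol. They were 14 subunits of the 20S core, 2 tissue-restricted core subunits, 17 structural subunits of the 19S regulatory particle, 3 chaperones of its base, 3 activators, 1 inhibitor and 4 chaperones of the core. The activator subunit Psme2 was named only on 1 probe set with several symbols and was not analysed here. A value of 4.39 in at least 3 arrays was passed by 43 members, all but Psmb11, and by 13629 genes in all.

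Gene expression was measured on Affymetrix arrays in 5 groups of 3 arrays each, as log2 values on which a difference of 1 is a doubling. Dendritic cells were gated as CD11c+ CD317- CD172a-, and then as CD117+ CCR7- (immature) or CD117- CCR7+ (mature). The groups were thymus CCR7-, thymus CCR7+, spleen CCR7- and spleen CCR7+ cells of untreated mice, and spleen CCR7+ cells of mice given 10 µg polyI:C, a double-stranded RNA mimic, intraperitoneally 18 h before harvest. CCR7 is the receptor that guides maturing dendritic cells to T cell zones. The sources used here give no strain, age or genotype, and nothing says whether replicates came from separate mice or sorts, so p-values measure the spread between these arrays. XCR1 is part of the sample names but not of the gates given. The names of all spleen samples also carry the code LT_SetA, which those of the thymus samples lack, and its meaning is not given.

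The proteasome degrades proteins tagged with ubiquitin. Its 20S core is a barrel of 2 outer alpha rings and 2 inner beta rings, and the beta subunits Psmb5, Psmb6 and Psmb7 carry the cutting sites. The 19S particle caps the barrel: its lid removes ubiquitin and its base of ATPases unfolds the substrate and opens the gate, while the activators PA28 and PA200 are alternative caps. Dedicated chaperones assemble the core and the base and are then released or degraded. Interferons induce Psmb8, Psmb9 and Psmb10, which replace the constitutive catalytic subunits and change the peptides supplied to MHC class I molecules.

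Promoter windows of the members with the largest falls and rises are shown for reference beside their values, as far as the RefSeq table of promoters held them. Each is the stretch of 250 bases before the gene's start in RefSeq's GRCm38.p6 annotation, read in the direction of transcription. Capitals mark a match to 1 of the 4 motifs searched on both strands, the antioxidant response element core TGACNNNGC, the CCAAT box CCAAT, the interferon-stimulated response element core GAAANNGAA and the gamma activated site TTCNNNGAA. The first 3 windows belong to the core chaperones Psmg1 and Psmg4, which changed in opposite directions, and to the activator Psme3, and the other two to the 19S subunits Psmc1 and Psmd11, which were higher with polyI:C. The Psmg1 window is chr16:95990961-95991210 on the minus strand, and the Psmg4 window chr13:34162714-34162963, the Psme3 window chr11:101315963-101316212, the Psmc1 window chr12:100109952-100110201 and the Psmd11 window chr11:80428365-80428614 are on the plus strand.
Psmg1: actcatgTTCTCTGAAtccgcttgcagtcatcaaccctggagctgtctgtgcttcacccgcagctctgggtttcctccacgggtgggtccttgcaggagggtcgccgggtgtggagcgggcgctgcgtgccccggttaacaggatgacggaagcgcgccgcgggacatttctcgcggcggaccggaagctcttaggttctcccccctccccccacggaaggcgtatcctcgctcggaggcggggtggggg
Psmg4: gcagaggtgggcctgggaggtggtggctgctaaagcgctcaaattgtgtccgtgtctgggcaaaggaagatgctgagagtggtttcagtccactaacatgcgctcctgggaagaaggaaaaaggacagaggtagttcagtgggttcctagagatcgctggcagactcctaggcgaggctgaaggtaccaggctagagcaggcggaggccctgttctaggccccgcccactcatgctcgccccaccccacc
Psme3: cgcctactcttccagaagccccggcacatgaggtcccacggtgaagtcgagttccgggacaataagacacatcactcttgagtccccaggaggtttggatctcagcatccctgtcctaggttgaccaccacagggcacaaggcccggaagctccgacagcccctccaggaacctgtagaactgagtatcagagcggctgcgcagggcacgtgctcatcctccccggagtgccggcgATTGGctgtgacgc
Psmc1: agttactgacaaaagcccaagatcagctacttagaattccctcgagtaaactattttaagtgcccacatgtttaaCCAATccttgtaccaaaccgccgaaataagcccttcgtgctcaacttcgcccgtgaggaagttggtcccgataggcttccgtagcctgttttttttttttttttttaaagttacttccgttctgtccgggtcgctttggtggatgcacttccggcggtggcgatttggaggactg
Psmd11: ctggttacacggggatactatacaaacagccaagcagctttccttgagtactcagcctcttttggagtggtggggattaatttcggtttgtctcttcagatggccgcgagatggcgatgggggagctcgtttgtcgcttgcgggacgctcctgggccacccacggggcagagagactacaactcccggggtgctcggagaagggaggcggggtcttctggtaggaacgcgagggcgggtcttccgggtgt
In these windows Psmg1 had 1 match to the gamma activated site, at -243 from the start. Psme3 and Psmc1 had a CCAAT box each, at -14 (reverse strand) and -175, and the windows of Psmg4 and Psmd11 held none of the 4 motifs. A further stretch of Psmg4, chr13:34162971-34162996 on the plus strand, held the GAAANNGAA match that begins at position 16, with the start base counted as 1.
Psmg4 site: gcgcatctGAAAGTGAAagagcgttc
Over the windows of 300 bases that add 50 bases after the start, 36 of the 44 members had a sequence, and Psma8, Psmb1, Psmb2, Psmb7, Psmc3, Psmd3, Psmd7 and Psmg2 did not. GAAANNGAA was found in 7 of the 36 (19.4%), against 9.76% of the windows of all 27025 genes. Within the 250 bases before the start alone it was found in 3 of the 36, and in 8.18% of all genes. The members that held it in the longer window were Psmb3, Psmb4, Psmc2, Psmd4, Psmd9, Psme1 and Psmg4. TGACNNNGC was found in 16.7% of member windows against 14% of all, CCAAT in 36.1% against 41.1% and TTCNNNGAA in 5.56% against 9.55%. Matches are letters in a window and were not tested as sites.

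The arrays had near-equal medians, from 4.855 to 4.996. Arrays of the spleen CCR7+ group resembled each other least, with mean correlations of 0.964 to 0.971 with their group mates against 0.980 to 0.990 in the other groups, and replicate 1 was the lowest. Ccr7 and Kit (CD117) transcripts followed the gates in both organs. Of the 7 markers of XCR1+ dendritic cells found, 4 were called lower and 1 higher in thymic maturation, 6 lower and 1 higher in untreated splenic and 5 lower and none higher in polyI:C maturation, the higher one being Batf3. The signal summed over them, to which bright genes contribute most, ran from 22200 to 24200 in thymus CCR7- and from 9210 to 11200 in thymus CCR7+, and from 25500 to 27600, 10200 to 14200 and 8060 to 9730 in spleen CCR7-, CCR7+ and polyI:C arrays. Xcr1 itself fell in all 3 maturation comparisons, from 11.40 to 5.25 in thymus and from 11.58 to 8.03 and 7.54 in spleen. In bulk samples of sorted cells, fewer cells of a type and less RNA per cell cannot be told apart.

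Mature dendritic cells had lower transcripts of the core assembly chaperones Psmg1 and Psmg2 and of the activator Psme3 (PA28γ). Transcripts of the chaperone Psmg4 were higher. Of the 14 core subunits none was called in thymus. In spleen 3 were called higher in untreated and 4 in polyI:C maturation, beside 12.3% and 18.4% of all genes. The 3 untreated calls all ended without spleen CCR7+ replicate 1. Members were called at an adjusted p under 0.05 (limma, Benjamini-Hochberg over all 13629 genes). In thymus, 10 of the 43 members were called between CCR7+ and CCR7- cells, 4 higher and 6 lower, where 37.3% of all genes were called, 16.8% higher and 20.4% lower. In untreated spleen 13 members were called, 8 higher and 5 lower, against 36.5% of all genes, 12.3% higher and 24.1% lower. That split of 8 and 5 depended on the setting: it was 11 higher and 4 lower after repeated quantile normalisation, 5 and 5 without probe sets whose suffix marks sequence shared between transcripts, 4 and 4 without spleen CCR7- replicate 2, and 2 and 4 in a fit of the 2 groups alone. Between polyI:C CCR7+ and untreated spleen CCR7- cells 24 members were called, 19 higher and 5 lower, against 46.4% of all genes, 18.4% higher and 28.0% lower. The 2 splenic maturation comparisons share the spleen CCR7- arrays, and the thymic comparison shares no array with them.

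**Figure D1:**
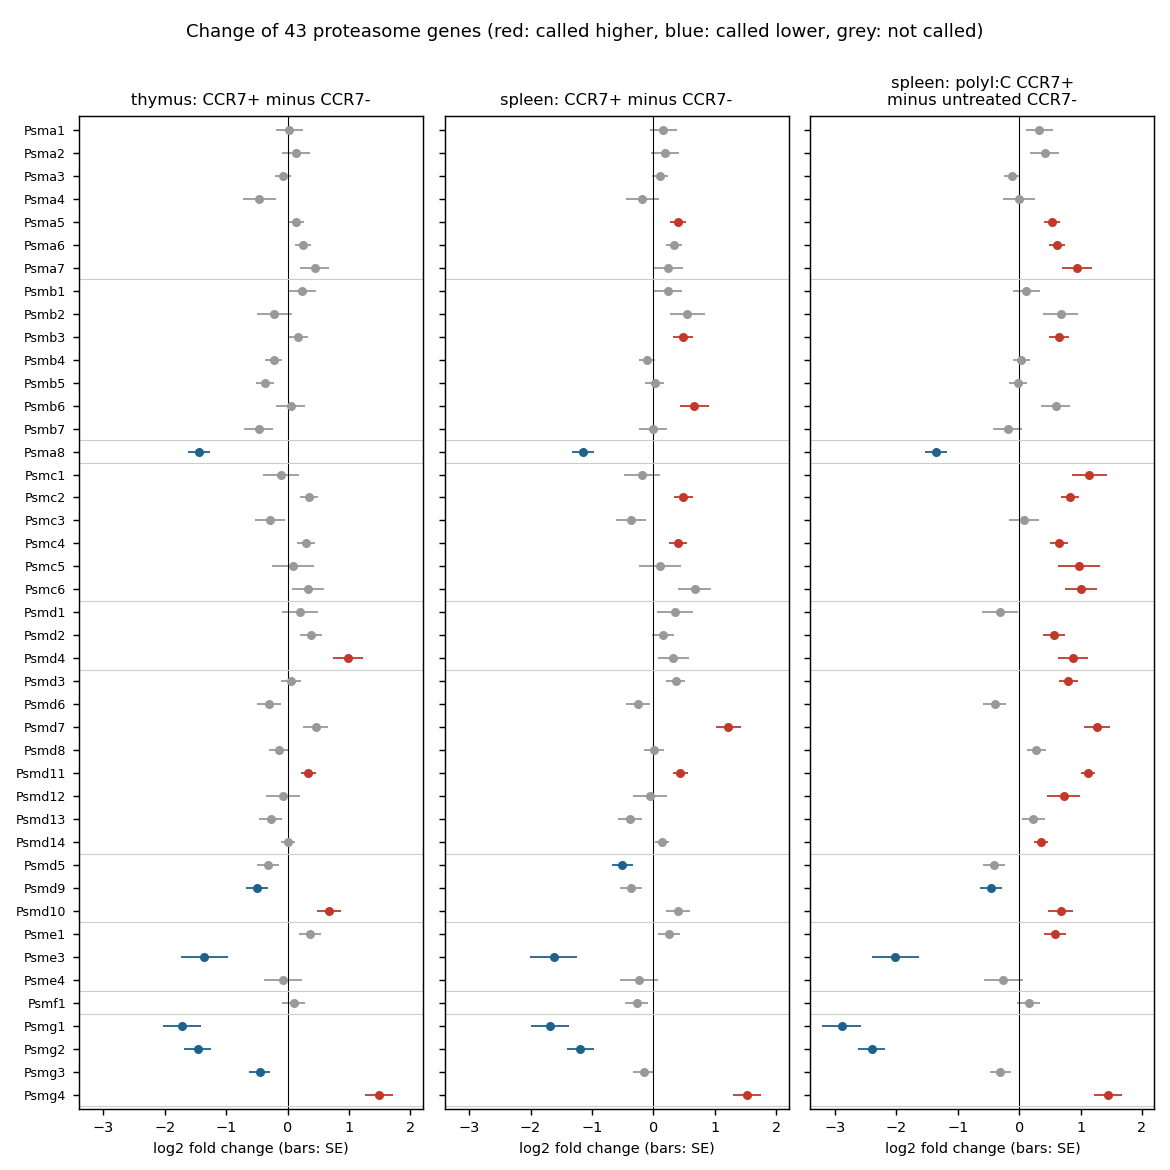
Log2 fold change (x axis, bars are the limma standard error) of the 43 members tested in thymic, untreated splenic and polyI:C splenic maturation, CCR7+ minus CCR7-, ordered by class (y axis). Grey lines divide the classes, and red and blue mark members called higher and lower. Psmg1, Psmg2, Psme3 and Psma8 lie to the left and Psmg4 to the right in all 3 panels, and the 19S subunits lie to the right mainly in the polyI:C panel.

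The 4 chaperones of core assembly held the largest changes. Psmg1 and Psmg2 form the PAC1-PAC2 dimer that aligns the first alpha subunits, and both fell with maturation in each setting. Psmg1 read 9.29, 8.91 and 9.04 in the 3 thymus CCR7- arrays and 7.10, 7.82 and 7.14 in thymus CCR7+. In spleen it read 9.02, 8.21 and 8.89 in CCR7-, 7.15, 7.49 and 6.41 in CCR7+, and 5.88, 6.24 and 5.31 in polyI:C CCR7+ cells. The mature arrays lay below the immature arrays without overlap in both organs, and the polyI:C arrays were the lowest of all. The log2 fold change was -1.73 (SE 0.31, limma adjusted p = 0.000468) in thymus, -1.69 (SE 0.31, adjusted p = 0.000725) in untreated spleen and -2.89 (SE 0.31, adjusted p = 3.15e-06) after polyI:C, the last a 7.44-fold lower level.

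Psmg2, the partner of Psmg1, followed the same order of groups. It read 9.39, 9.47 and 9.57 in thymus CCR7- and 8.11, 8.02 and 7.90 in thymus CCR7+. Spleen CCR7- arrays read 9.20, 8.88 and 9.21, CCR7+ arrays 8.19, 8.03 and 7.49 and polyI:C arrays 6.77, 7.12 and 6.18. Again the immature arrays were highest, the polyI:C arrays lowest, and mature and immature groups did not overlap in either organ. The log2 fold changes were -1.47 (SE 0.22, limma adjusted p = 0.000109), -1.19 (SE 0.22, adjusted p = 0.000785) and -2.41 (SE 0.22, adjusted p = 7.67e-07), and another probe set of Psmg2 gave -1.62, -1.07 and -2.28.

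Psmg3 and Psmg4 form the other assembly dimer, PAC3-PAC4, and here the partners differed. Psmg4 rose: it read 8.99, 8.57 and 9.21 in thymus CCR7- against 10.62, 10.42 and 10.21 in thymus CCR7+. In spleen it read 8.55, 8.53 and 8.93 in CCR7-, 10.72, 10.07 and 9.78 in CCR7+, and 9.98, 10.16 and 10.21 after polyI:C. All mature arrays lay above all immature ones, and the polyI:C arrays fell within the range of the untreated mature spleen arrays. The log2 fold changes were 1.49 (SE 0.23, limma adjusted p = 0.000118), 1.52 (SE 0.23, adjusted p = 0.000155) and 1.45 (SE 0.23, adjusted p = 0.00011).

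Psmg3 read 9.09, 8.98 and 8.94 in thymus CCR7-, 8.66, 8.69 and 8.29 in thymus CCR7+, and between 8.11 and 8.77 over the 9 spleen arrays. Its thymic groups did not overlap and differed by -0.46 (SE 0.17, limma adjusted p = 0.0498), a call that ended when any 1 of the 6 arrays was left out (-0.53 to -0.33). In spleen its changes of -0.16 and -0.31 did not pass the test.

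**Figure D2:**
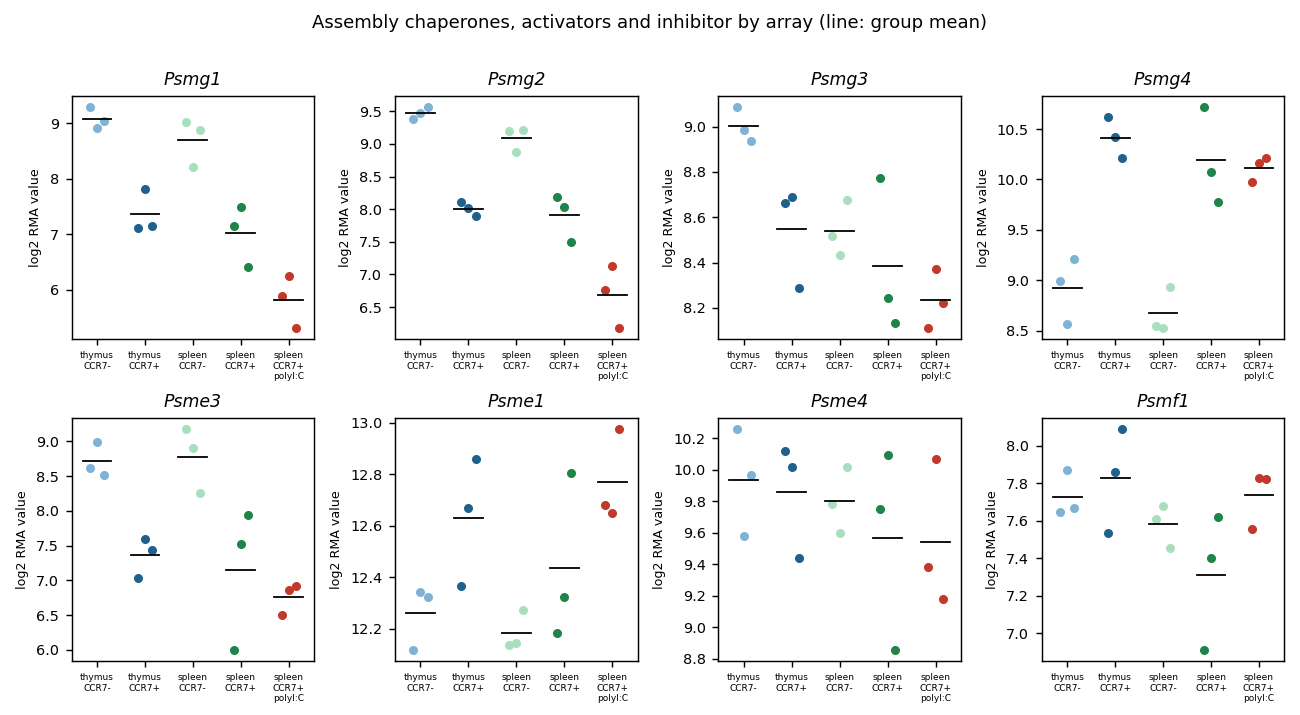
Log2 value (y axis) in each array, by group (x axis), of the core assembly chaperones Psmg1 to Psmg4 (top), and of the activators Psme3, Psme1 and Psme4 and the inhibitor Psmf1 (bottom); lines are group means and each panel has its own y range. Psmg1 and Psmg2 step down from immature to mature to polyI:C cells in spleen, Psmg4 steps up with maturation, and Psme3 is lower in all mature groups.

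The calls among the 14 subunits of the core barrel differed between the comparisons. None of the 14 was called in thymic maturation (limma; 1 had an unadjusted p under 0.05), with changes from -0.47 to 0.44 and a median of 0.04 where the median of all genes tested was -0.06 and 16.8% of them were called higher. In untreated spleen 3 rose and none fell, beside 12.3% of all genes called higher, with a median of 0.21 against -0.03 for all genes. All 3 calls, of Psma5, Psmb3 and Psmb6, ended without spleen CCR7+ replicate 1. The median of the 14 core subunits, each centred on its own mean, was 0.31, -0.04 and -0.21 in the CCR7+ arrays. In the spleen CCR7- arrays it was -0.21, -0.47 and -0.08, so these groups overlapped. With polyI:C 4 rose and none fell, beside 18.4% of all genes called higher, with a median of 0.37 against 0.02, and 7 rose when the probe sets of each gene were averaged.

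Of the alpha ring, which forms the gate of the barrel, Psma5 rose in untreated spleen by 0.41 and Psma5, Psma6 and Psma7 rose with polyI:C by 0.53, 0.61 and 0.94 (limma adjusted p from 0.00117 to 0.00477). The Psma5 call in untreated spleen ended without spleen CCR7- replicate 2 (0.33) or spleen CCR7+ replicate 1 (0.32). Psma7 read 10.84, 10.74 and 11.24 in spleen CCR7- and 11.69, 12.12 and 11.83 in polyI:C arrays. These ranges did not overlap, and the untreated CCR7+ arrays, 11.11, 11.70 and 10.73, overlapped both. Psma1, Psma2, Psma3 and Psma4 differed by -0.46 to 0.42 over the 3 comparisons with no call.

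In the beta ring Psmb3, a structural subunit, rose by 0.48 in untreated spleen (limma adjusted p = 0.0309) and by 0.64 with polyI:C (adjusted p = 0.0045). The first of these calls ended without spleen CCR7- replicate 1 (0.46), spleen CCR7- replicate 2 (0.46) or spleen CCR7+ replicate 1 (0.26). Without suffixed probe sets neither passed the test (0.36 and 0.44). Psmb1, Psmb2 and Psmb4 passed the test in no maturation comparison, with differences of -0.23 to 0.68.

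The catalytic subunits were set beside the inducible subunits that replace them. Psmb5, the chymotrypsin-like subunit, read 11.39, 11.30 and 11.09 in thymus CCR7- and 10.89, 10.98 and 10.79 in thymus CCR7+. Over the spleen it read 11.08, 10.92 and 10.90 in CCR7-, 11.27, 10.82 and 10.87 in CCR7+, and 10.76, 11.003 and 11.08 after polyI:C. The thymic groups lay apart but did not pass the test (-0.37, SE 0.15, limma adjusted p = 0.0688, 95% interval -0.69 to -0.05), and the spleen groups overlapped with changes of 0.02 and -0.02. The 95% interval of the polyI:C change of Psmb5 ran from -0.34 to 0.30.

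Psmb6, the caspase-like subunit, read 10.61, 10.41 and 10.48 in thymus CCR7- and 10.63, 10.60 and 10.41 in thymus CCR7+. In spleen it read 10.04, 9.78 and 9.97 in CCR7-, 11.32, 10.20 and 10.27 in CCR7+, and 10.34, 10.46 and 10.76 after polyI:C. The immature spleen arrays were the lowest of the series for this gene, and CCR7+ replicate 1 was the highest. Its rise of 0.67 in untreated spleen (SE 0.24, limma adjusted p = 0.0389) was 0.30 without spleen CCR7+ replicate 1 and was no longer called there, nor without any of spleen CCR7- replicates 1, 2 and 3 (0.72, 0.59 and 0.69). The polyI:C change of 0.59 did not pass the test (adjusted p = 0.0535).

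Psmb7, the trypsin-like subunit, read 11.79, 12.06 and 11.75 in thymus CCR7- and 11.28, 11.11 and 11.79 in thymus CCR7+. Spleen values were 12.02, 11.98 and 11.72 in CCR7-, 11.93, 11.38 and 12.39 in CCR7+, and 11.61, 11.67 and 11.87 with polyI:C. All compared groups of Psmb7 overlapped, and its changes of -0.47, -0.01 and -0.19 did not pass the test.

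Psmb10, the inducible counterpart of Psmb7, rose in all 3 maturation comparisons. It read 11.06, 11.51 and 11.16 in thymus CCR7- and 12.02, 12.18 and 12.21 in thymus CCR7+. In spleen it went from 10.64, 11.02 and 10.75 in CCR7- to 12.08, 11.33 and 11.71 in CCR7+ and 12.12, 12.14 and 12.37 after polyI:C. The groups did not overlap, and the log2 fold changes were 0.89, 0.90 and 1.41 (SE 0.19 each, limma adjusted p = 0.00153, 0.00165 and 2.3e-05).

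Psmb8, the counterpart of Psmb5, was called only with polyI:C. It read 12.59, 12.83 and 12.40 in thymus CCR7-, 12.72, 12.91 and 13.05 in thymus CCR7+, and 12.78, 12.71 and 12.51 in spleen CCR7-. Spleen CCR7+ arrays read 13.03, 12.74 and 13.06 and polyI:C arrays 13.14, 13.14 and 13.39, the highest of the series. Its changes were 0.28, 0.28 and 0.56 (SE 0.15), of which the last passed the test (limma adjusted p = 0.00773).

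Psmb9, the counterpart of Psmb6, was called in none of the 3. It read 12.38, 12.38 and 12.10 in thymus CCR7-, 12.13, 12.47 and 12.41 in thymus CCR7+, and 12.47, 12.38 and 12.27 in spleen CCR7-. In spleen CCR7+ it read 12.00, 12.08 and 12.40, and 12.44, 12.57 and 12.74 with polyI:C. These groups overlapped, with changes of 0.05, -0.21 and 0.21.

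**Figure D3:**
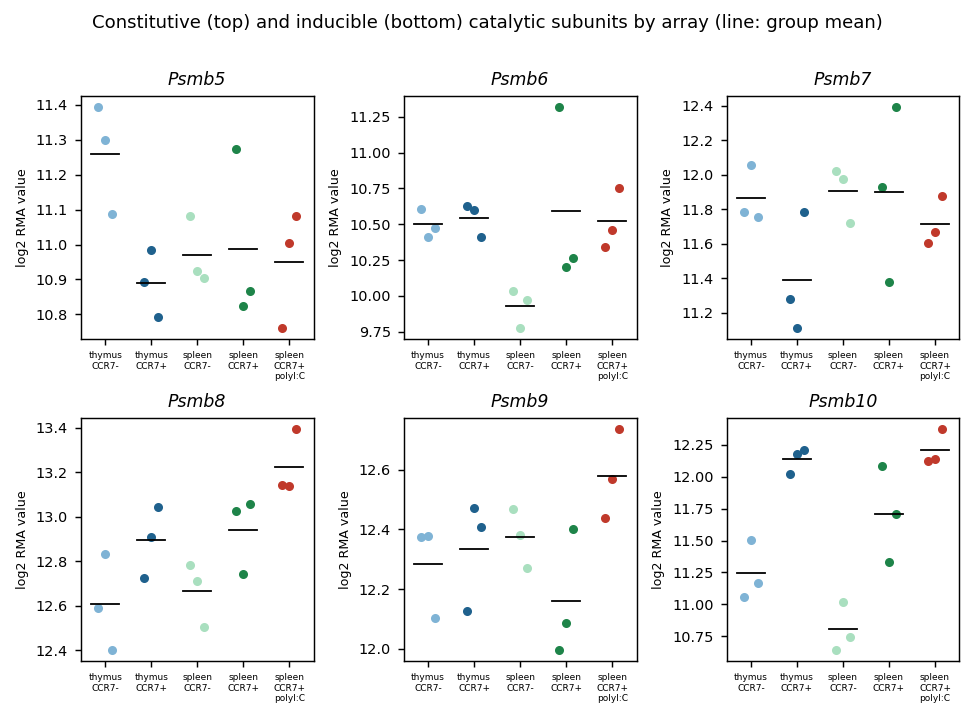
Log2 value (y axis) in each array, by group (x axis), of the constitutive catalytic subunits Psmb5, Psmb6 and Psmb7 (top) and of the inducible subunits Psmb8, Psmb9 and Psmb10 that replace them (bottom); lines are group means, and each panel has its own y range. Psmb10 lies higher in every mature array than in every immature array of the same organ, and Psmb8 is highest in the polyI:C arrays.

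The 2 tissue-restricted core subunits gave low values. Psmb11, the subunit of the thymoproteasome of cortical thymic epithelium, lay between 3.43 and 4.36 in all 15 arrays and did not pass the filter. Psma8, the alpha subunit of the testis proteasome, read 5.65, 5.38 and 5.68 in thymus CCR7- and 5.39, 5.33 and 5.56 in spleen CCR7-. In mature cells it read 3.92, 4.03 and 4.43 in thymus, 3.97, 4.54 and 4.34 in spleen and 4.09, 4.23 and 3.87 after polyI:C. The immature arrays lay above all mature ones, and the mature values were near the filter value. Since Psma8 passed the filter through its immature arrays, with 2 of the 9 mature arrays above 4.39, its values are given as a description, although it is among the members counted as lower in all 3 comparisons.

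The structural subunits of the 19S particle rose from untreated spleen CCR7- to polyI:C CCR7+ cells, which differ in both maturation and treatment. Of the 17, 12 rose and none fell, with a median change of 0.72 where all genes had 0.02, and 18.4% of all genes were called higher. Leaving out single arrays left 9 to 11 of them called. With the mean of each gene's probe sets 11 rose and 1 fell, fitting the polyI:C and spleen CCR7- arrays alone also gave 11 and 1, and without probe sets whose suffix marks shared sequence 8 rose and 1 fell. In thymus 2 of the 17 rose, with a median of 0.09, beside 16.8% of all genes called higher. In untreated spleen 4 rose, with a median of 0.16, beside 12.3% of all genes, and none fell in either. The class medians per array showed the same: the polyI:C arrays lay at 0.26 to 0.31 above each gene's own mean, and the other 12 arrays between -0.38 and 0.17. Against untreated spleen CCR7+ cells, 3 of the 17 were called higher in polyI:C cells and none lower, with a median of 0.41. There 8.58% of all genes were called higher, and their median was 0.01.

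**Figure D4:**
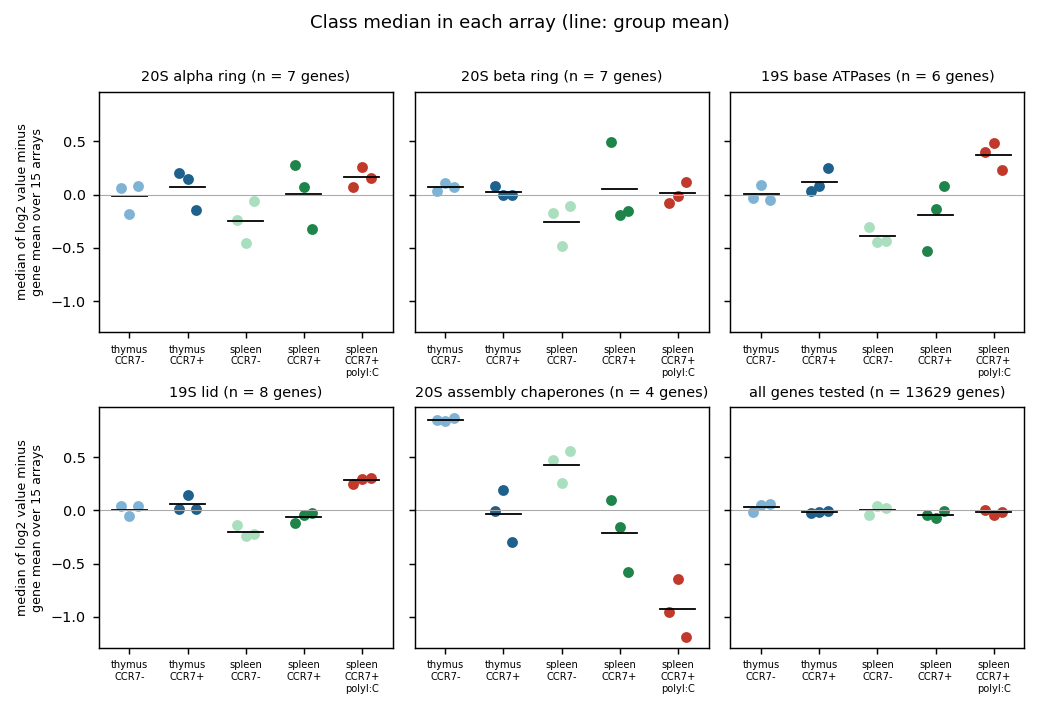
Median over the genes of a class of the log2 value minus that gene's mean over the 15 arrays (y axis), for each array by group (x axis), with lines at group means; the last panel gives the same for all 13629 genes tested. The lid is highest in the polyI:C arrays and lowest in the spleen CCR7- arrays. The ATPases have the highest group mean in polyI:C cells, with 1 thymus CCR7+ array (0.25) above the lowest polyI:C array (0.23), and the core chaperones are lowest in polyI:C arrays.

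Of the 6 base ATPases, which form the ring that unfolds substrates, 5 rose with polyI:C: Psmc1, Psmc2, Psmc4, Psmc5 and Psmc6, by 1.14, 0.83, 0.64, 0.97 and 1.0 (limma adjusted p from 0.000377 to 0.0299). Psmc3 differed by 0.07. The Psmc6 rise rested on its brightest probe set: the mean of its probe sets gave 0.49 and another of them 0.13, neither called. The Psmc5 call ended without spleen CCR7- replicate 1 (0.97) or 3 (0.85) or polyI:C replicate 1 (0.86) or 2 (0.95). In untreated spleen Psmc2 and Psmc4 rose by 0.49 and 0.40, and in thymus none of the 6 passed the test (limma). The Psmc2 call ended without spleen CCR7- replicate 1 (0.47) or 3 (0.47) or spleen CCR7+ replicate 3 (0.36), and the Psmc4 call without spleen CCR7- replicate 2 (0.30) or 3 (0.41) or spleen CCR7+ replicate 1 (0.35) or 3 (0.34).

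Psmc1 was higher in polyI:C cells than in any other group. It read 9.84, 9.84 and 9.88 there, 8.98, 8.59 and 8.56 in spleen CCR7- and 7.58, 8.89 and 9.10 in spleen CCR7+. Thymus arrays read 9.22, 9.18 and 8.99 in CCR7- and 8.90, 9.05 and 9.13 in CCR7+. The polyI:C arrays stood above the 12 others, of which spleen CCR7+ replicate 1 was the lowest. Against untreated mature spleen the rise was 1.33 (SE 0.29, limma adjusted p = 0.00508), and 0.85 without that replicate (adjusted p = 0.00179). A fit of these 2 groups alone gave the same rise with an adjusted p of 0.0761.

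In the rest of the base, Psmd4, a ubiquitin receptor, rose in thymus and with polyI:C. It read 10.22, 10.23 and 10.15 in thymus CCR7- and 10.87, 11.39 and 11.30 in thymus CCR7+. In spleen it read 9.95, 9.90 and 9.87 in CCR7-, 9.47, 10.66 and 10.57 in CCR7+, and 10.66, 10.78 and 10.92 after polyI:C. In untreated spleen replicate 1 of CCR7+ lay below the immature arrays and the other two above them. The changes were 0.99 (SE 0.25, limma adjusted p = 0.00529), 0.33 (not called) and 0.88 (adjusted p = 0.00885). Its 3 probe sets ran from -0.19 to 0.99 in thymus, and their mean, 0.50, was not called. The scaffold Psmd2 rose with polyI:C by 0.57 (adjusted p = 0.0169), a call that ended without spleen CCR7- replicate 3 (0.44), and the scaffold Psmd1 differed by -0.32 without passing the test.

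The lid, which holds the deubiquitinase Psmd14, had 5 of 8 subunits called higher with polyI:C. These were Psmd3, Psmd7, Psmd11, Psmd12 and Psmd14, by 0.80, 1.26, 1.12, 0.72 and 0.35 (limma adjusted p from 3.13e-06 to 0.0438). Psmd6, Psmd8 and Psmd13 differed by -0.40, 0.28 and 0.23. The Psmd12 call ended without any of spleen CCR7- replicates 1 (0.77) and 2 (0.55) and polyI:C replicates 1, 2 and 3 (0.81, 0.54 and 0.82). The Psmd14 call ended without spleen CCR7- replicate 2 (0.32) or 3 (0.34) or polyI:C replicate 1 (0.27).

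Psmd11, a lid scaffold subunit, gave the smallest adjusted p of the 19S subunits. It read 10.996, 10.77 and 10.94 in thymus CCR7- and 11.22, 11.27 and 11.23 in thymus CCR7+. In spleen it climbed from 10.65, 10.43 and 10.55 in CCR7- to 10.87, 11.04 and 11.04 in CCR7+ and 11.75, 11.69 and 11.54 after polyI:C. None of the compared groups overlapped. The changes were 0.34 in thymus (SE 0.12, limma adjusted p = 0.037), 0.44 in untreated spleen (adjusted p = 0.0103) and 1.12 with polyI:C (adjusted p = 3.13e-06). The thymic call ended without any 1 of 5 arrays, all but replicate 1 of thymus CCR7-, with values of 0.28 to 0.36. Its 7 probe sets above the filter ran from -0.13 to 0.46, -0.19 to 0.66 and 0.11 to 1.16 in the 3 comparisons. With a probe set that has no shared-sequence suffix the thymic and untreated splenic changes were 0.05 and 0.55 and not called.

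Psmd7, the partner of the deubiquitinase Psmd14, rose in both splenic comparisons. It read 7.94, 7.45 and 7.54 in spleen CCR7-, 9.28, 8.54 and 8.78 in CCR7+, and 8.64, 8.80 and 9.29 after polyI:C. The thymus arrays read 8.22, 8.13 and 8.28 in CCR7- and 8.66, 8.67 and 8.68 in CCR7+. Both pairs of groups lay apart in spleen, with rises of 1.22 (SE 0.20, limma adjusted p = 0.000352) and 1.26 (SE 0.20, adjusted p = 0.000136), and the thymic groups lay apart by 0.46 without a call. A second probe set of Psmd7 gave 1.99 and 1.94 in spleen and 1.42 in thymus.

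**Figure D5:**
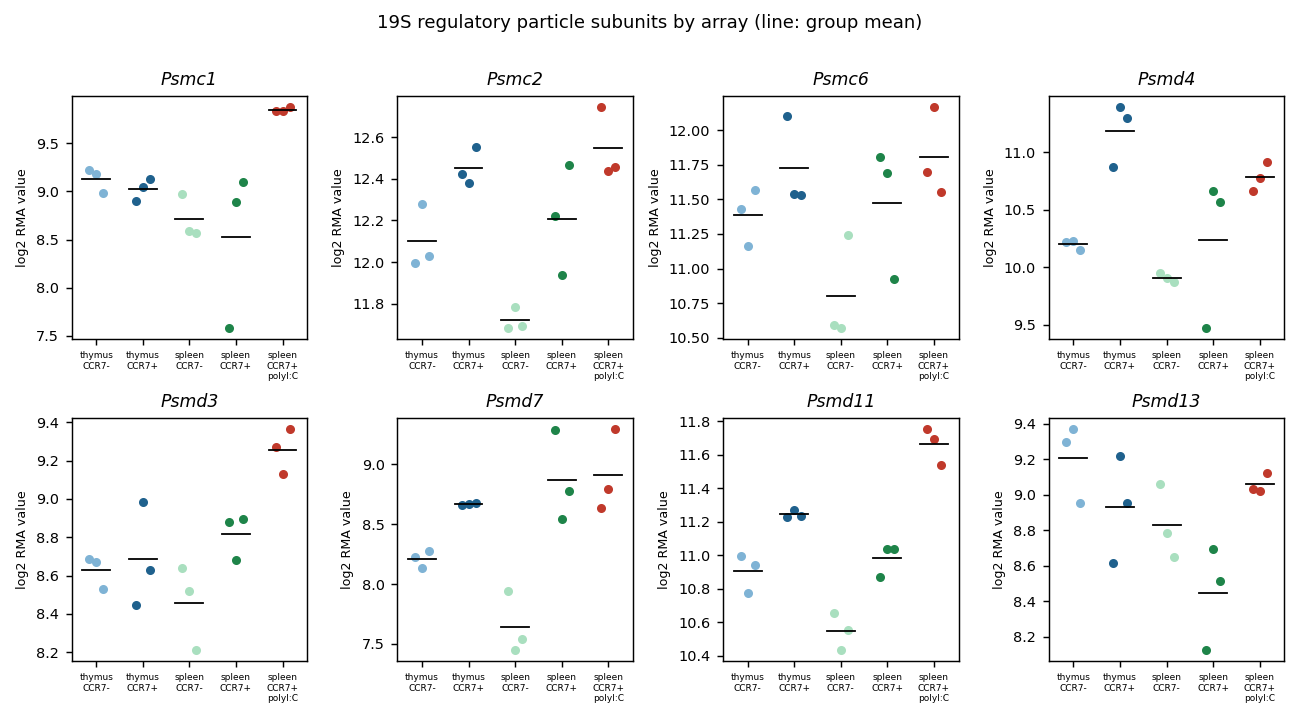
Log2 value (y axis) in each array, by group (x axis), of 8 subunits of the 19S particle, the ATPases Psmc1, Psmc2 and Psmc6, the ubiquitin receptor Psmd4 and the lid subunits Psmd3, Psmd7, Psmd11 and Psmd13; lines are group means and each panel has its own y range. The polyI:C arrays of Psmc1, Psmd3 and Psmd11 lie above all other arrays, and spleen CCR7+ replicate 1 is the lowest array for Psmc1, Psmd4 and Psmd13.

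The 3 chaperones of base assembly did not move together. Psmd10, also known as gankyrin, read 9.44, 9.14 and 9.23 in thymus CCR7- and 9.94, 9.85 and 10.04 in thymus CCR7+. Among spleen arrays it read 9.26, 9.02 and 9.005 in CCR7-, 8.99, 9.84 and 9.65 in CCR7+ and 9.48, 9.93 and 9.89 after polyI:C. The thymic and the polyI:C groups did not overlap with their immature groups, with rises of 0.68 (SE 0.20, limma adjusted p = 0.015) and 0.67 (adjusted p = 0.0126), while the untreated splenic groups overlapped (0.40). The thymic call ended without thymus CCR7- replicate 2 (0.61) or thymus CCR7+ replicate 3 (0.63).

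Psmd9 read 7.55, 7.43 and 7.52 in thymus CCR7-, 7.001, 7.15 and 6.84 in thymus CCR7+, and 6.95, 6.69 and 6.94 in spleen CCR7-. Spleen CCR7+ arrays read 6.29, 6.84 and 6.34 and polyI:C arrays 6.22, 6.72 and 6.25. It fell by 0.50 in thymus, where the groups did not overlap, and by 0.46 with polyI:C, where they did (limma adjusted p = 0.0368 and 0.044). Its 3 probe sets above the filter disagreed, from -0.50 to 1.14 in thymus and from -0.46 to 1.07 with polyI:C, and the mean of the probe sets turned both signs (0.13 and 0.22). The thymic call ended without any of 5 single arrays, all but thymus CCR7+ replicate 2 (-0.53 to -0.42), and the polyI:C call without spleen CCR7- replicate 1 or 3 or polyI:C replicate 1 or 3 (-0.42 to -0.37).

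Psmd5, another chaperone of the base, fell by 0.51 in untreated spleen (limma adjusted p = 0.0361), with spleen CCR7- at 8.12, 7.92 and 7.80 and CCR7+ at 7.64, 7.57 and 7.10. These ranges did not overlap, and the call ended without spleen CCR7- replicate 1 (-0.42) or 2 (-0.52) or spleen CCR7+ replicate 3 (-0.34). Its changes of -0.32 in thymus and -0.41 with polyI:C did not pass the test.

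Among the activators Psme3, which forms the nuclear PA28γ ring, fell in every maturation comparison. It read 8.63, 8.997 and 8.52 in thymus CCR7- and 7.04, 7.60 and 7.44 in thymus CCR7+. The spleen arrays read 9.18, 8.90 and 8.26 in CCR7-, 6.002, 7.52 and 7.95 in CCR7+, and 6.50, 6.86 and 6.93 after polyI:C. Mature arrays lay below immature arrays throughout, and the untreated spleen CCR7+ arrays spread most. The changes were -1.36 (SE 0.39, limma adjusted p = 0.0121), -1.62 (adjusted p = 0.00428) and -2.02 (adjusted p = 0.000568).

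Without thymus CCR7+ replicate 1 the thymic change of Psme3 was -1.19 and no longer called, and without spleen CCR7+ replicate 1 the splenic change was -1.05 and still called (limma adjusted p = 0.00826). A second probe set of Psme3 gave -0.71, -0.73 and -0.58.

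Psme1, a subunit of the interferon-inducible PA28αβ ring, read 12.12, 12.34 and 12.32 in thymus CCR7- and 12.36, 12.67 and 12.86 in thymus CCR7+. Spleen values were 12.14, 12.14 and 12.27 in CCR7-, 12.19, 12.32 and 12.80 in CCR7+, and 12.68, 12.65 and 12.98 after polyI:C. The thymic groups lay just apart, the untreated splenic groups overlapped and the polyI:C arrays lay above the immature ones. Only the polyI:C change passed the test, 0.58 (SE 0.18, limma adjusted p = 0.0132), and without polyI:C replicate 3 it was 0.48 and no longer called. The thymic and untreated splenic changes were 0.37 and 0.25.

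Psme4, the PA200 activator, and Psmf1, an inhibitor of the core, were called in no maturation comparison. Psme4 read 10.26, 9.58 and 9.97 in thymus CCR7- and 10.12, 10.01 and 9.44 in thymus CCR7+, then 9.78, 9.60 and 10.01, 9.75, 10.09 and 8.86, and 9.38, 10.06 and 9.18 in spleen CCR7-, CCR7+ and polyI:C arrays. Its groups overlapped, with changes of -0.08, -0.23 and -0.26. Psmf1 read 7.65, 7.87 and 7.67 and 7.53, 7.86 and 8.09 in thymus CCR7- and CCR7+, and 7.61, 7.68 and 7.46, 6.91, 7.40 and 7.62, and 7.55, 7.83 and 7.82 in spleen CCR7-, CCR7+ and polyI:C arrays. Its groups overlapped as well, with changes of 0.10, -0.27 and 0.15.

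PolyI:C CCR7+ spleen cells were also set against untreated CCR7+ spleen cells. No CCR7- cells of polyI:C mice were measured, so a change tied to maturation cannot be told apart from one that is not. Of the 43 members 5 were called, 3 higher and 2 lower, against 18.2% of all genes, 8.58% higher and 9.66% lower. Psmg1 and Psmg2 fell by a further 1.21 each (limma adjusted p = 0.0146 and 0.00157). The Psmg1 call ended without spleen CCR7+ replicate 2 (-0.97) or polyI:C replicate 3 (-0.96), and without the latter only 3 members were called.

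The 3 members that rose were the ATPase Psmc1, given above, and the lid subunits Psmd11 and Psmd13. Psmd11 rose by 0.68 (SE 0.12, limma adjusted p = 0.0012), and read 0.46 without a call on a probe set with no shared-sequence suffix. Psmd13 read 8.13, 8.70 and 8.52 in spleen CCR7+ and 9.03, 9.02 and 9.12 after polyI:C, beside 9.06, 8.78 and 8.65 in spleen CCR7-, 9.30, 9.37 and 8.96 in thymus CCR7- and 8.62, 9.22 and 8.96 in thymus CCR7+. The mature spleen groups lay apart by 0.61 (SE 0.19, limma adjusted p = 0.037), while the polyI:C arrays overlapped those of both immature groups. This call ended without spleen CCR7+ replicate 1 (0.45) or 3 (0.65) or polyI:C replicate 1, 2 or 3 (0.62, 0.63 and 0.58). It turned to -1.24 (adjusted p = 0.00193) when probe sets with suffixes that mark shared sequence were left out, and to -0.07 with the mean of its probe sets. None of the 14 core subunits was called in this comparison (limma; 2 had an unadjusted p under 0.05).

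Between the organs few members were called, in a fit that did not pair arrays by replicate number. The code LT_SetA goes with organ in the sample names, so anything it stands for cannot be told apart from organ here. In immature cells 39 of the 43 differences, thymus minus spleen, were above 0, with a median of 0.27 over the members and 0.34 over the 17 structural 19S subunits, where all genes tested had a median of 0.04 and 7717 of 13629 above 0. Of the members 10 had an unadjusted p under 0.05 (limma) and 2 were called, both higher in thymus, where 8.16% of all genes were called, 4.92% higher and 3.24% lower. These were Psma6, with 12.48, 12.45 and 12.49 in thymus CCR7- and 12.09, 11.91 and 12.05 in spleen CCR7-, and Psmd9, whose values are given above. Neither pair of groups overlapped, with differences of 0.46 and 0.64 (limma adjusted p = 0.0406 and 0.0368). Both calls ended when any 1 of the 6 arrays was left out, with values of 0.40 to 0.49 and 0.56 to 0.68. With the mean of the probe sets the differences were 0.26 and 0.03, neither called. In thymus CCR7+ and spleen CCR7+ Psma6 read 12.83, 12.59 and 12.75, and 12.58, 12.24 and 12.23.

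In mature untreated cells 32 of the 43 differences were above 0, with a median of 0.19. All genes tested had a median of 0.04, with 7311 of 13629 above 0. Psmd4 was the only member called, higher in thymus by 0.95 (SE 0.25, limma adjusted p = 0.0212), where 12.2% of all genes were called, 8.71% higher and 3.47% lower. The call ended without thymus CCR7+ replicate 2 (0.85) or 3 (0.90). With the mean of the probe sets the difference was 0.51, no longer called, and 1 other member was called higher. Without suffixed probe sets 1 other member was called, lower in thymus. Without spleen CCR7+ replicate 1 the Psmd4 difference was 0.57 with 2 members called. Leaving out replicate 2 of that group gave 4 called members, and replicate 3 gave 2.

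Whether maturation changed a member differently in thymus and spleen was tested as the difference of the 2 changes. None of the 43 members was called (limma), 1 had an unadjusted p under 0.05, and 3.18% of all genes were called, 1.79% higher and 1.39% lower. That member was Psmd7, with a thymic change lower by 0.76 (SE 0.29, adjusted p = 0.203). For Psmg1, Psmg2, Psmg4 and Psme3 the differences were -0.04, -0.27, -0.03 and 0.27, with SEs of 0.44, 0.31, 0.32 and 0.55.

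Other genes of the pathway were taken from 4 short lists, each described by its counts. Of the 3 tested genes that act in transcription of proteasome genes, Nfe2l1 (the factor NRF1) rose in each maturation comparison. It read 8.47, 8.91 and 8.41 in thymus CCR7- and 10.07, 10.94 and 10.71 in thymus CCR7+. Spleen arrays read 8.47, 8.75 and 8.24 in CCR7-, 9.57, 10.56 and 10.89 in CCR7+, and 10.63, 10.77 and 11.17 after polyI:C. All mature arrays exceeded all immature ones, by 1.98, 1.85 and 2.37 (SE 0.31 each, limma adjusted p = 0.00014, 0.000335 and 1.88e-05). The related factor Nfe2l2 was called in none of the 3.

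Of the 7 genes of assembly, association and regulation tested, 1 rose and 1 fell in thymus, 1 rose in spleen, and 2 rose and 2 fell with polyI:C, beside 37.3%, 36.5% and 46.4% of all genes called in either direction. Akirin2, which carries proteasomes into the nucleus, rose by 0.58, 1.04 and 0.93. Uchl5, a deubiquitinase of the 19S particle, fell by 0.95 in thymus and by 1.23 with polyI:C (limma adjusted p = 0.0115 and 0.00157). Pomp, the maturation factor of the core, differed by -0.27, -0.12 and -0.28 without a call.

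Of the 7 genes that deliver ubiquitinated proteins 3, 2 and 2 rose in the 3 maturation comparisons and none fell, beside 16.8%, 12.3% and 18.4% of all genes called higher. Nploc4, a cofactor of the unfoldase VCP, rose in all of them by 1.06, 0.99 and 1.28, and Vcp rose in thymus by 0.94. Of the 3 tested genes of ubiquitin activation and chain extension none rose, and 1, 2 and 1 fell, beside 20.4%, 24.1% and 28.0% of all genes called lower. The ubiquitin ligase Ube3a fell by 0.87 in untreated spleen and by 2.00 with polyI:C (limma adjusted p = 0.0357 and 7.63e-05).

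For scale, all 5 tested interferon-response reference genes rose with polyI:C: Ifit1 by 8.19 and Tap1, the peptide transporter, by 0.82. Psmb10, Psmb8 and Psme1 rose by 1.41, 0.56 and 0.58 in the same comparison. Of the 5 reference genes 4 were called higher and 1 lower in thymic and in untreated splenic maturation, with medians of 0.86 and 1.86. Between thymus and spleen 3 were called higher in thymus and none lower, in immature and in mature cells.

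Markers of other cells moved with some comparisons. Of 5 T cell and thymocyte markers tested 4 were called higher in thymus CCR7+, among them Rag1 (6.27 to 9.12), and their summed signal ran from 188 to 460 in thymus CCR7- and from 840 to 2470 in thymus CCR7+. In spleen that sum was 88.8 to 107, 148 to 221 and 364 to 536 in CCR7-, CCR7+ and polyI:C arrays, with Cd8b1 as the 1 marker called in each comparison and Rag1 between 2.53 and 3.27. The sum of 3 B cell markers was 649 to 701 in spleen CCR7- and 1150 to 3560 in spleen CCR7+, with 2 called. The sum of 4 plasmacytoid dendritic cell markers was 1470 to 1660 in spleen CCR7- and 3450 to 4780 after polyI:C, with Bst2, an interferon-induced gene, called higher and Ccr9 lower, and that of 2 granulocyte markers was 25.6 to 28.7 and 68.9 to 88.1. In thymic maturation the sum of 6 thymic epithelium markers was 1500 to 1680 in thymus CCR7- and 540 to 673 in thymus CCR7+, with Krt8 called higher and Epcam lower. Over the same groups the sum of 3 macrophage and monocyte markers was 888 to 1480 and 162 to 411, with Mertk called higher and Csf1r lower, and that of the B cell markers 201 to 256 and 253 to 1290, with Ms4a1 called higher. Between immature cells of the organs 2 T cell, 2 plasmacytoid, 2 thymic epithelium and 1 CD172a+ dendritic cell markers were called higher in thymus. Between mature cells 3, 1, 2 and 1 of them were. In both comparisons 1 B cell marker was called lower in thymus. Of the XCR1+ dendritic cell markers 1 was called higher and 1 lower in immature and 3 lower in mature thymus cells. Beside them 8.16% and 12.2% of all genes were called. The part of other cells in the changes and differences above was not tested.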

How the data were processed

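Total RNA of sorted cells was amplified and hybridised to Affymetrix mouse arrays. The deposited values are log2 signals that the authors made with RMA and the affy package, per the submitters' processing notes; the sources used here give no versions and do not say which arrays were normalised together. RMA gives no detection calls, and changes of dim genes are compressed.

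Of 45101 probe sets, 34958 carried 1 symbol. The brightest probe set by mean over the 15 arrays stood for a gene. A gene was tested where 3 or more arrays exceeded 4.39, the 40th percentile of the table. The test was limma 3.58.1 (R 4.3.3), with 5 group means fitted to all arrays, moderated variances (10 residual and 4.01 prior degrees of freedom) and Benjamini-Hochberg adjustment. The model was tested on simulated data. Fold changes are differences of group means on the log2 scale, with CCR7- cells, untreated mature cells or spleen cells subtracted.

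Members, classes, pathway lists, marker lists and motifs were chosen with earlier results of these data known. Values in every array are given for the catalytic, inducible, activator, inhibitor and tissue-restricted genes and for the 3 called members with the largest rise and fall in each comparison, and in addition for a few members of interest. Replicate numbers appear in every group. Deviations of same-numbered arrays correlated at 0.52 to 0.57 between immature cells of thymus and spleen. Between their mature cells the correlations were 0.42 to 0.59, so the numbers pair those 2 comparisons. The main fit did not use this pairing. The replicate block gave 2 and 1 calls there, as many as without it. That block fits 1 shift per replicate number to all 5 groups, so it cannot model separate pairings of immature and of mature cells. The effect of such pairings on the calls was not tested. Alternatives tried were other filters, probe set rules, normalisations, variance settings, fits of the compared groups, the replicate block and leaving out each array. With 3 arrays a group, their number limits the precision.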

Additional observations from a re-analysis of the deposited data

How the results depend on the processing

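Of the 55 calls of a member in a comparison, 27 held under every alternative, 28 ended under at least 1 and 3 of these changed sign. The signs that changed were those of Psmd13 between polyI:C and untreated mature spleen (-0.069 with the mean of the probe sets and -1.24 without suffixed probe sets) and of Psmd9 in thymic and polyI:C maturation (0.13 and 0.22 with the mean of the probe sets). The cause of these changes was not tested.

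A fit of the compared groups only lowered the count from 13 to 6 in untreated splenic maturation, from 5 to 2 between polyI:C and untreated mature spleen and from 1 to 0 between mature cells of thymus and spleen. It left 10 calls in thymic maturation and gave 25 against 24 in polyI:C maturation. The cause was not tested. Between immature cells the count of 2 became 1 with a 60th percentile filter, centring on array medians or the trend and robust settings. With the mean of the probe sets it was also 1, but that was another member, and neither Psma6 (0.26) nor Psmd9 (0.03) was called. Centring gave 2 calls between mature cells. Averaging probe sets raised the core subunits called with polyI:C from 4 to 7.

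Leaving out single arrays gave 6 to 9 calls in thymic, 8 to 16 in untreated splenic and 20 to 23 in polyI:C maturation, 3 to 7 between polyI:C and untreated mature spleen, 0 between immature cells, 0 to 4 between mature cells and 0 for the difference between organs. The low counts were 6 without thymus CCR7- replicate 2 or thymus CCR7+ replicate 1, and 8 without spleen CCR7- replicate 2. The 19S subunits called with polyI:C stayed at 9 to 11 and the core subunits at 4 to 5. With the replicate block the counts in the 7 comparisons were 8, 13, 26, 5, 2, 1 and 0. Same-numbered arrays correlated at -0.06 to 0.16, -0.12 to -0.10 and -0.27 to 0.10 in the 3 maturation comparisons, so no pairing by number was seen there. Between polyI:C and untreated mature spleen the correlations of replicates 1, 2 and 3 were 0.0015, 0.64 and 0.14. Whether same-numbered arrays came from the same mice or sorts is not given. The calls of Psmb3, Psmc2 and Psmc4 in untreated spleen ended without suffixed probe sets (0.36, 0.27 and 0.06), and so did that of Psmb3 with polyI:C (0.44).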

Other observations

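Probe sets of 1 gene did not always agree, which bears on how the core is read. Besides the probe set used, 22 members had 42 further probe sets above the filter. In polyI:C maturation 23 of the 42 gave a more positive and 19 a less positive change than the one used, 5 of them by more than 1 above it and 2 by more than 1 below it. The examples that follow were chosen after their values were seen.

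A dimmer probe set of the alpha subunit Psma1, with a mean of 8.96, changed by 1.14, 1.45 and 1.93 in thymic, untreated splenic and polyI:C maturation, where the one used, with a mean of 12.23, gave 0.03, 0.16 and 0.33. A dimmer probe set of Psma3 gave 1.10, 0.87 and 1.14 against -0.07, 0.10 and -0.12. Of 5 probe sets of the PA200 activator Psme4, 2 gave positive changes (1.10, 1.15 and 0.96 for the higher) and 3 negative ones, the one used among them. A second probe set of Vcp gave 1.98, 1.80 and 1.77 against 0.94, 0.66 and 0.18. Which transcripts each probe set measures was not tested.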
